A study of Mus musculus with 6 samples.

Results

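Mast cells store a small set of proteases in their granules, and the transcripts of 9 of the genes that encode them were examined here in GFP+Lin−c-Kit+ AE9a leukemia cells. The 9 genes are the tryptases Tpsb2, Tpsab1 and Tpsg1, the chymase family members Cma1, Mcpt4, Mcpt1, Mcpt2 and Mcpt8, and the carboxypeptidase Cpa3. They are 9 of 53618 named rows of the deposited table and 9 of the 12298 genes that passed the expression filter, so that no member was lost to the filter. The genes were chosen by their normalized counts in these same 6 libraries, since several of them were higher in the tamoxifen 2 and tamoxifen 3 libraries but not in tamoxifen 1. Their values are therefore given as a description, with no test.

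Each of the 6 bulk RNA-seq libraries came from the spleen of 1 mouse, 3 injected with oil (cells labelled Usp18+/f) and 3 injected with tamoxifen (cells labelled Usp18+/Δ). AE9a, a shortened form of the AML1-ETO fusion, induces acute myeloid leukemia when expressed in mouse hematopoietic cells, and GFP marks the cells that carry it. Every library, oil included, was from Usp18+/f UBCER-Cre AE9a leukemia, in which a tamoxifen-activated Cre is expressed from the broadly active ubiquitin C promoter. Per the study's methods the leukemia began with transduced fetal liver cells and was passed on to sublethally irradiated wild-type C57BL/6 recipients, which were adult mice of both sexes. Cells were sorted after 3 injections of oil or tamoxifen, 3 days after the first one. The groups therefore differ in exposure to tamoxifen as well as in the intended loss of 1 Usp18 allele, and these cannot be told apart. The sort took all GFP+Lin−c-Kit+ cells of the spleen, so that in these bulk samples fewer cells of a type and less RNA per cell cannot be told apart. c-Kit, the gene used in the sort, is also a defining receptor of mast cells.

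Mast cell tryptases and chymases are serine proteases with trypsin-like and chymotrypsin-like cleavage, and carboxypeptidase A3 trims residues from the C-terminal end of peptides. They are packed as active enzymes in granules on the heparin and chondroitin sulfate chains of serglycin and are released when the cell degranulates. In mice, connective tissue mast cells are known for Cma1, Mcpt4, Cpa3 and the soluble tryptases, mucosal mast cells for Mcpt1 and Mcpt2, and basophils for Mcpt8.

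The members lie in 3 places in the genome (coordinates are those of GENCODE vM21, GRCm38, matched by symbol). The 5 chymase family genes lie on chromosome 14 within 143.8 kb, with Cma1 at one end and Mcpt8 at the other. The 3 tryptase genes lie on chromosome 17 within 31.2 kb, where Tpsg1 begins 174 bases after the end of Tpsb2 on the same strand. Cpa3 lies alone on chromosome 3. The promoter table of RefSeq (GRCm38.p6, 250 bases before to 50 bases after each gene's start) held 6 of the 9 members, Tpsg1 with 2 starts. The 250 bases before the start are shown for Cma1, the most abundant member, for Cpa3, whose level was the steadiest of the abundant members among the oil libraries, and for Mcpt1 and Mcpt4, genes of one locus with closely related promoters and different values. They are written 5′ to 3′ on the gene's strand, and capitals mark 3 kinds of letters, each searched on both strands. Those called GATA letters below are AGATAA and its relative, in which the first base is replaced, TGATAA. Those called RUNX letters, after the factors that bind them, are TGTGGT. Those called TATA letters are TATAAA. The windows are chr14:55944676-55944925 (minus strand) for Cma1, chr3:20242182-20242431 (minus) for Cpa3, chr14:56017714-56017963 (plus) for Mcpt1 and chr14:56062311-56062560 (minus) for Mcpt4.
Cma1: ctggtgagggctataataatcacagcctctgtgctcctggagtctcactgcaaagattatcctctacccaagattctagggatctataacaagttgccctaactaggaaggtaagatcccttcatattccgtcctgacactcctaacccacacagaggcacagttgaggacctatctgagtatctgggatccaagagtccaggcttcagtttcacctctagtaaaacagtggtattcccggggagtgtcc
Cpa3: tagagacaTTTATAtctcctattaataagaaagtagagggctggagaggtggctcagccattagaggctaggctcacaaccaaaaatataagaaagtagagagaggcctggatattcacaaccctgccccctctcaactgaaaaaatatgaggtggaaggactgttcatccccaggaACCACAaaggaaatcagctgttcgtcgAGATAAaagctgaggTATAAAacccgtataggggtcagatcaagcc
Mcpt1: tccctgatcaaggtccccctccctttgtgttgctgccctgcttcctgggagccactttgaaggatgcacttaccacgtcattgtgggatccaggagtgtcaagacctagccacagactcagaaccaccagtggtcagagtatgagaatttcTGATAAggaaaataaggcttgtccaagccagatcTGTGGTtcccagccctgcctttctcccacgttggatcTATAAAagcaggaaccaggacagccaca
Mcpt4: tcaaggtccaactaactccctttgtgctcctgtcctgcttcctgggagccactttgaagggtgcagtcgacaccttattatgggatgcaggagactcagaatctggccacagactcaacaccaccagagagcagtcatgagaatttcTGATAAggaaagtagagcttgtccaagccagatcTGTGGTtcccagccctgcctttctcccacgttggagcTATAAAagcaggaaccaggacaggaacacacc
The Mcpt1 and Mcpt4 windows of 300 bases were 80.6% identical over 309 aligned columns, while every other pair of member windows was between 43.2% and 52.7% identical. Both held GATA, RUNX and TATA letters in the same order. The TATA letters began 28 bases before the start in Mcpt1 and 32 bases before it in Mcpt4. The Cpa3 window had TATA letters 31 bases before the start and GATA letters 46 bases before it, and further TATA letters, on the other strand, at 242 bases. Cma1 had none of these letters in the 250 bases shown, and its single match, to the RUNX letters, began 32 bases after the start.

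Over the 7 member windows of 300 bases, GATA letters of either form were found in 4 (Cpa3, Mcpt1, Mcpt4 and the first start of Tpsg1), against 18.6% of all 32851 promoters in the table. RUNX letters were found in 6 of the 7, in all but the first start of Tpsg1, against 16.8% of all promoters. TATA letters were found in 3 of the 7, against 13.6%. The letters CACATG, an E-box of the kind bound by MITF, were found in 0 of the 7, against 14.2% of all promoters. The AP-1 letters TGANTCA were also found in 0 of the 7, against 7.81%. In the windows shown the matches did not overlap one another. A match is a run of letters and not a site shown to be bound, and the absence of one says only that these letters are not in the window.

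The libraries held between 19172471 and 23785143 reads. Usp18, the gene meant to lose an allele, was higher in the libraries labelled tamoxifen. Its normalized counts were 217, 214 and 176 with the label oil and 477, 329 and 284 with the label tamoxifen (log2 difference 0.81, limma adjusted p 0.666), so every direction below compares labels and not a measured loss of Usp18. Counts over a whole gene do not tell an intact allele from a recombined one that is still transcribed, and the recombination itself was not measured here. The tamoxifen 1 library stood apart, with a median correlation across genes of 0.913 with the other libraries, against 0.981 to 0.990 for each of the others, with 0.00923% of reads from mitochondrial genes, against 1.01% to 1.56% elsewhere, and with a deviation that rose with GC content (Spearman's rho of 0.70 over protein-coding genes, which are no replicates, against -0.23 to 0.033 in the others). Member values are given with and without this library. Of the 20 mast cell markers other than the proteases, 16 were expressed enough to be tested and Mrgprb1 was at 0 in every library. Fcer1g, Hpgds and Ltc4s were also too low to be tested, with oil means of 6.85, 2.17 and 6.48 normalized counts. Their tamoxifen means were 7.70, 6.97 and 9.38. The summed level of the 20 markers was 137561 to 161972 normalized counts in the oil libraries and 123785 to 168871 in the tamoxifen libraries. Much of it came from Il1rl1, Srgn, Hdc and Ms4a2, with oil means of 37122, 27160, 24540 and 18739. It also includes Kit, the gene used in the sort. Transcripts of many but not all of these markers were thus present in both groups. Markers of NK cells were at or near 0, with 5 of 6 (Ncr1, Klrb1c, Prf1, Gzma and Eomes) at 0 in every library.

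**Figure D1:**
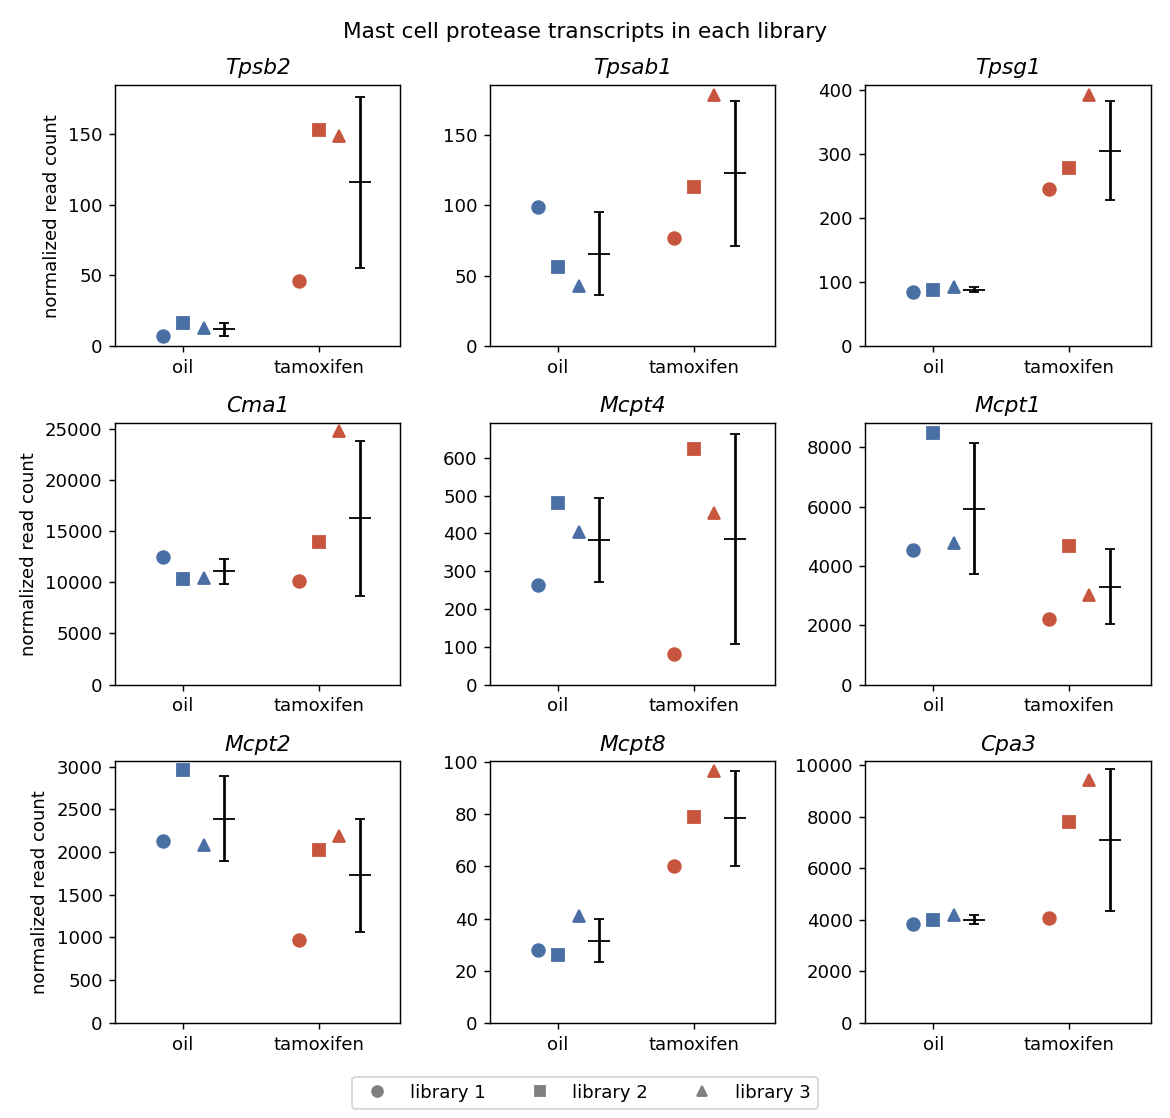
Normalized read count (y axis, linear from 0) of each of the 9 protease genes in each library, oil in blue and tamoxifen in red, with marker shapes for replicate numbers and the group mean ± SD in black (n = 3). The 3 tamoxifen libraries lie above all oil libraries for Tpsb2, Tpsg1 and Mcpt8, and the tamoxifen 1 library (red circle) is the lowest of the 6 for Cma1, Mcpt4, Mcpt1 and Mcpt2.

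The members covered a wide range of levels before any comparison of groups. Per kilobase of exon in the oil libraries, Cma1 was highest at 10137 ± 1091 normalized counts per kb (SD, n = 3), which puts its level at the 98.0 percentile of all tested genes before scaling by length. It was followed by Mcpt1 at 5858 ± 2187, Cpa3 at 2634 ± 116, Mcpt2 at 2254 ± 466 and Mcpt4 at 345.5 ± 99.5 normalized counts per kb. The remaining members were much lower, Tpsg1 at 63.8 ± 2.76, Mcpt8 at 31.6 ± 8.10, Tpsab1 at 31.4 ± 14 and Tpsb2 at 7.65 ± 2.92 normalized counts per kb. Among neighbours in this order, the oil libraries of Cpa3 and Mcpt2 overlapped, and so did those of Mcpt8 and Tpsab1, while the other neighbours did not overlap. In the tamoxifen libraries the order had changed, with Cpa3 (4676 ± 1808 normalized counts per kb) in front of Mcpt1 (3262 ± 1243) and Tpsb2 (72.5 ± 37.8) in front of Tpsab1 (58.6 ± 24.6). The ranges of both pairs overlapped there.

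Tpsb2 encodes a soluble tryptase that forms tetramers on heparin in the granule. Tpsb2 (ENSMUSG00000033825.10, chr17:25366305-25369098, plus strand) had 7.19, 16.4 and 13.0 normalized counts in the oil 1, 2 and 3 libraries and 46.01, 153 and 148 in the tamoxifen 1, 2 and 3 libraries. All 3 tamoxifen libraries were above all oil libraries, and tamoxifen 1 was well below the other two. The oil values rest on 8, 17 and 14 reads and the tamoxifen values on 36, 151 and 163 reads, so that the oil level is known only roughly. The mean was 12.2 ± 4.66 in oil and 116 ± 60.3 in tamoxifen (SD, n = 3), a ratio of 9.48, or 12.3 without tamoxifen 1. On the log2(value + 1) scale the difference was 3.03, with a within-group SD of 0.79, and 3.59 without tamoxifen 1.

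Tpsab1 lies nearby on the opposite strand and encodes the other soluble tryptase. Tpsab1 (ENSMUSG00000024173.11, chr17:25343245-25345562, minus strand) had 98.8, 56.0 and 42.7 normalized counts in the oil libraries and 76.7, 113 and 178 in the tamoxifen libraries. The oil 1 library was the highest of its group and above tamoxifen 1, so that the groups overlapped. The mean was 65.8 ± 29.3 in oil and 123 ± 51.4 in tamoxifen (SD, n = 3), a log2 difference of 0.89 against a within-group SD of 0.61, and of 1.19 without tamoxifen 1 or 0.58 without tamoxifen 3. Within the pair the balance differed between the groups. Tpsb2 made up 6.78%, 22.7% and 23.3% of the reads of the 2 soluble tryptases in the oil libraries and 37.5%, 57.4% and 45.4% in the tamoxifen libraries, with no overlap. The 2 transcripts were 78.2% identical over 413 aligned columns and shared no stretch of 75 bases, so that reads of that length have a place in only one of them.

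Tpsg1 encodes a tryptase with a transmembrane tail that stays on the membrane when granules fuse. Tpsg1 (ENSMUSG00000033200.16, chr17:25369273-25374442, plus strand) had 85.3, 87.8 and 92.9 normalized counts in the oil libraries and 245, 279 and 393 in the tamoxifen libraries. The 3 oil libraries lay close together and all 3 tamoxifen libraries lay above them. The mean was 88.7 ± 3.83 in oil and 305.7 ± 77.3 in tamoxifen (SD, n = 3), a ratio of 3.45 and, without tamoxifen 1, of 3.79. The log2 difference of 1.75 (within-group SD 0.25) became 1.49 after a correction of each library for GC content. Tpsg1 had the highest GC content of the members at 58.0%. The last 158 bases of Tpsg1 overlap the calcium channel gene Cacna1h on the opposite strand, and 7.55% of the 75-base windows of the Tpsg1 transcript occur in Cacna1h on the other strand. Cacna1h had 7.19, 14.5 and 7.43 normalized counts in the oil libraries and 148, 81.8 and 137 in the tamoxifen libraries. How the counting treated strand is not given in the sources used here, so the part of overlapping reads in the Tpsg1 values was not tested.

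Cma1 encodes the chymase of connective tissue mast cells and was the most abundant member. Cma1 (ENSMUSG00000022225.7, chr14:55941451-55944675, minus strand) had 12420, 10304 and 10423 normalized counts in the oil libraries and 10154, 13893 and 24719 in the tamoxifen libraries. Tamoxifen 1 was the lowest of the 6 and tamoxifen 3 the highest, so that the tamoxifen libraries enclosed the oil libraries. The mean was 11049 ± 1189 in oil and 16255 ± 7564 in tamoxifen (SD, n = 3), a log2 difference of 0.46 that is smaller than the within-group SD of 0.47. Single libraries moved it, to 0.75 without tamoxifen 1 and to 0.11 without tamoxifen 3. The tamoxifen 3 library held 27182 Cma1 reads, against 7945 in tamoxifen 1 and 13751 in tamoxifen 2.

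Mcpt4 encodes a heparin-bound chymase that is also typical of connective tissue mast cells. Mcpt4 (ENSMUSG00000061068.7, chr14:56059629-56062313, minus strand) had 263, 480 and 405 normalized counts in the oil libraries and 80.5, 622 and 453 in the tamoxifen libraries. Tamoxifen 1 was far below and tamoxifen 2 above every oil library. The means were close, 383 ± 110 in oil and 385 ± 277 in tamoxifen (SD, n = 3). Mcpt4 was the member for which tamoxifen 1 set the direction, with a log2 difference of -0.39 over all 6 libraries and 0.51 without it (within-group SD 1.16). Leaving out any one of the other libraries gave -0.95 to -0.20, with -0.95 without tamoxifen 2, -0.72 without tamoxifen 3, -0.63 without oil 1 and -0.20 without oil 2. Tamoxifen 1 differed from the oil mean of Mcpt4 by -2.19 on the log2 scale, and the GC trend of that library at the gene's GC content was -0.036.

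Mcpt1 and Mcpt2 encode the chymase family members of mucosal mast cells. Mcpt1 (ENSMUSG00000022227.5, chr14:56017971-56020384, plus strand) had 4531, 8496 and 4792 normalized counts in the oil libraries and 2214, 4686 and 3024 in the tamoxifen libraries. Oil 2 was the highest and the groups overlapped only between oil 1 and tamoxifen 2. The mean was 5940 ± 2218 in oil and 3308 ± 1260 in tamoxifen (SD, n = 3), a ratio of 0.557 and, without tamoxifen 1, of 0.649. The log2 difference was -0.85, with a within-group SD of 0.52, and was -0.60 without tamoxifen 1 and -0.56 without oil 2.

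Mcpt2 (ENSMUSG00000022226.6, chr14:56042041-56044642, plus strand) had 2135, 2961 and 2077 normalized counts in the oil libraries and 974, 2020 and 2186 in the tamoxifen libraries. Tamoxifen 1 was far below the other 5 libraries, and the other two tamoxifen libraries lay near oil 1 and oil 3. The mean was 2391 ± 494 in oil and 1727 ± 657 in tamoxifen (SD, n = 3), a log2 difference of -0.54 that shrank to -0.17 without tamoxifen 1. Mcpt1, Mcpt2 and Mcpt4 are close relatives, with transcripts 77.9% to 82.5% identical, and Mcpt1 and Mcpt2 share no stretch of 75 bases with another gene.

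Mcpt8 encodes a granzyme-like serine protease and is a defining marker of mouse basophils. Mcpt8 (ENSMUSG00000022157.8, chr14:56082166-56085273, minus strand) had 27.8, 26.0 and 40.9 normalized counts in the oil libraries and 60.1, 78.8 and 96.4 in the tamoxifen libraries. The 3 tamoxifen libraries were all above the oil libraries. The mean was 31.6 ± 8.08 in oil and 78.4 ± 18.2 in tamoxifen (SD, n = 3), a ratio of 2.48 and a log2 difference of 1.29 (within-group SD 0.34), or 1.46 without tamoxifen 1. The other basophil markers are given for comparison. The summed level of the 9 basophil markers, without Mcpt8, was 3373 to 4383 normalized counts in the oil libraries. It was 1201, 3405 and 3305 in tamoxifen 1, 2 and 3. Of the 5 that were tested, 0 were higher in all 3 tamoxifen libraries (7.86% of all tested genes were, so that a count of 0 is near the background). Ccl3 and Ccl4 were at 0. Of the other defining basophil genes, Cd200r3, a surface receptor, had 3324, 3681 and 2668 normalized counts in oil and 782, 2768 and 2585 in tamoxifen. Cd200r3 made up most of the summed level, so the 2 are not separate observations. Its GC content is 41.2%, where the tamoxifen 1 library was low. Prss34, a basophil tryptase, had 19.8, 9.65 and 16.7 in oil and 15.3, 21.2 and 11.8 in tamoxifen.

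Cpa3 encodes carboxypeptidase A3, which is stored together with the chymases. Cpa3 (ENSMUSG00000001865.2, chr3:20215620-20242181, minus strand) had 3823, 3992 and 4174 normalized counts in the oil libraries and 4074, 7774 and 9431 in the tamoxifen libraries. Tamoxifen 1 lay inside the narrow oil range and the other two tamoxifen libraries well above it. The mean was 3996 ± 175 in oil and 7093 ± 2743 in tamoxifen (SD, n = 3), a ratio of 1.77 and, without tamoxifen 1, of 2.15. The log2 difference was 0.74 (within-group SD 0.45) and became 1.10 without tamoxifen 1 and 0.49 without tamoxifen 3. Cpa3 has the lowest GC content of the members, 41.3%, and at this GC content the trend of the tamoxifen 1 library was -1.15 on the log2 scale. Corrected for it, tamoxifen 1 was 1.22 above the oil mean in place of 0.029, and the log2 difference over all 6 libraries was 1.17.

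**Figure D2:**
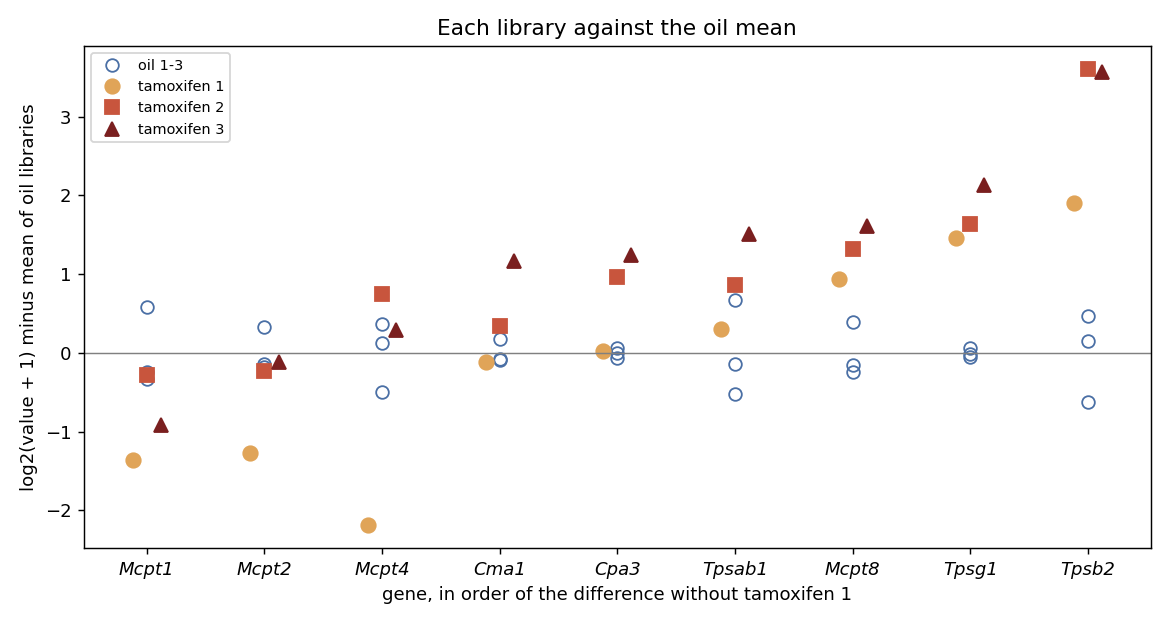
Difference of each library from the mean of the 3 oil libraries on the log2(value + 1) scale (y axis) for the 9 proteases (x axis, ordered by the difference without tamoxifen 1). Tamoxifen 1 is below tamoxifen 2 and 3 for all genes shown, from -2.19 for Mcpt4 to 1.90 for Tpsb2, and open circles show the spread of the oil libraries.

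Side by side, 6 of the 9 members were above every oil library in both tamoxifen 2 and tamoxifen 3 (Tpsb2, Tpsg1, Mcpt8, Cma1, Cpa3 and Tpsab1), as were 12.6% of all tested genes. For 3 of these, Cma1, Cpa3 and Tpsab1, tamoxifen 1 was not above the oil libraries, a pattern found in 4.72% of all tested genes. Tpsb2, Tpsg1 and Mcpt8 were above every oil library in all 3 tamoxifen libraries, as were 7.86% of all tested genes, and 0 members were below every oil library in all 3, as were 9.69%. The members were picked for this pattern, so nothing is read from these shares. Tamoxifen 1 was the lowest of the 6 libraries for 4 members (Cma1, Mcpt1, Mcpt2 and Mcpt4), as it was for 41.6% of all tested genes. The median log2 difference of the 9 members was 0.74, and 1.10 without tamoxifen 1, against -0.017 and -0.021 over all tested genes. The number of members with a positive difference was 6, and 7 without tamoxifen 1.

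**Figure D3:**
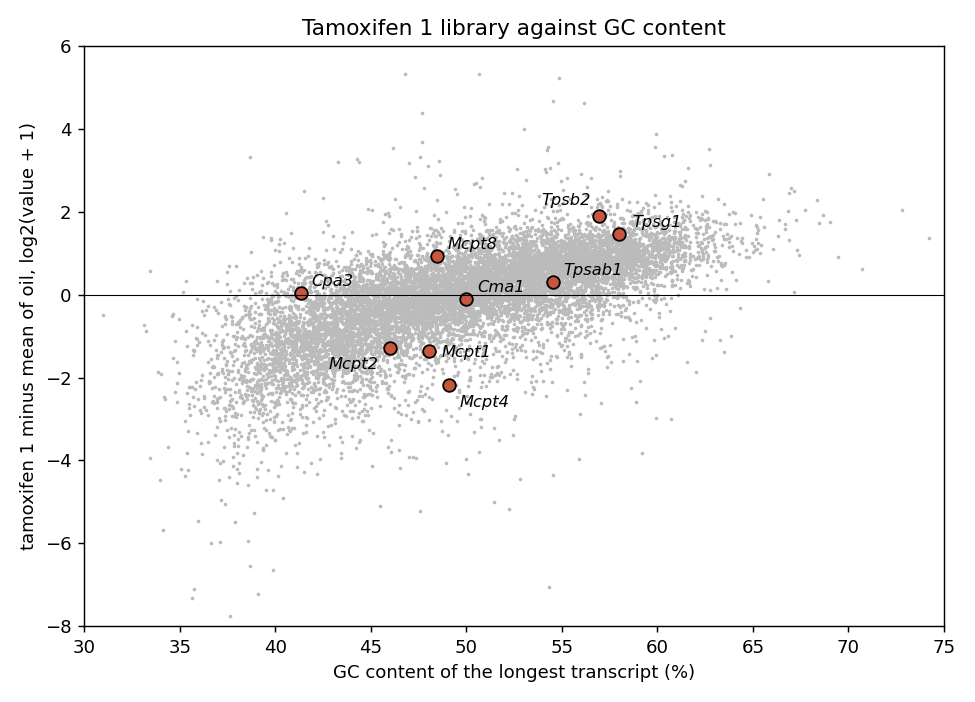
Difference of the tamoxifen 1 library from the mean of the oil libraries on the log2(value + 1) scale (y axis) against the GC content of the longest transcript in percent (x axis), for tested protein-coding genes (grey) and the 9 proteases (red). The grey cloud rises with GC content, Cpa3 lies above the trend at its 41.3% GC and Mcpt4 below the trend at its 49.1% GC.

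The GC content of the members ran from 41.3% for Cpa3 to 58.0% for Tpsg1, and the plot of the tamoxifen 1 library against GC content shows where each stood. The GC trend of that library, on the log2 scale, was 0.69 for Tpsb2, 0.48 for Tpsab1 and 0.78 for Tpsg1. It was 0.060 for Cma1, -0.036 for Mcpt4, -0.10 for Mcpt8, -0.15 for Mcpt1, -0.41 for Mcpt2 and -1.15 for Cpa3. The tryptases thus stood at the GC contents where this library was raised and Cpa3 at one where it was lowered. After the correction tamoxifen 1 was still 1.20 above the oil mean for Tpsb2, 0.66 above for Tpsg1 and 1.05 above for Mcpt8, while for Tpsab1 it went from 0.31 to -0.19. For Mcpt1, Mcpt2 and Mcpt4 it remained below the oil mean, at -1.20, -0.85 and -2.15.

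Added together, the 9 proteases had 23391, 26419 and 22060 normalized counts in the oil libraries and 17925, 29618 and 40629 in the tamoxifen libraries. Tamoxifen 1 was the lowest and tamoxifen 3 the highest of the 6. These sums were 0.110%, 0.123% and 0.101% of the reads of named genes in oil and 0.0732%, 0.137% and 0.193% in tamoxifen. The log2 ratio of the group means was 0.29, against an SD of 0.43 within groups, and it was 0.55 without tamoxifen 1 and -0.011 without tamoxifen 3. The summed level therefore had no direction that held when single libraries were left out.

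The share each member took of the sum does not depend on how the libraries are scaled to each other. The share of Mcpt1 was 19.4%, 32.2% and 21.7% in the oil libraries and 12.3%, 15.8% and 7.44% in the tamoxifen libraries. The share of Mcpt2 was 9.13% to 11.2% in oil and 5.38% to 6.82% in tamoxifen. Both mucosal genes thus had a lower share in every tamoxifen library, tamoxifen 1 included. The shares are parts of one sum, so a member that does not rise loses share where others rise. Mcpt2 itself had 2186 normalized counts in tamoxifen 3, inside the oil range of 2077 to 2961. Since several members were picked for being higher in tamoxifen 2 and 3, nothing is read from the shares or from the ratio below. The share of Cpa3 was 15.1% to 18.9% in oil and 22.7% to 26.2% in tamoxifen, and that of the 3 tryptases was 0.606% to 0.818% in oil and 1.77% to 2.05% in tamoxifen, both without overlap. The share of Cma1 overlapped, with 39.0% to 53.1% in oil and 46.9% to 60.8% in tamoxifen. The ratio of the connective tissue type transcripts (Cma1, Mcpt4, Cpa3, Tpsb2 and Tpsab1) to the mucosal type transcripts (Mcpt1 and Mcpt2) was 2.49, 1.30 and 2.19 in the oil libraries and 4.53, 3.36 and 6.70 in the tamoxifen libraries. This grouping was made after the values were seen, so the ratio is a description. GC content still enters these shares and ratios, since Mcpt1 and Mcpt2 have 48.0% and 45.99% GC. Cma1 and Cpa3, which make up most of the connective tissue type sum, have 50% and 41.3%. Tpsb2, a small part of it, has 56.9%.

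**Figure D4:**
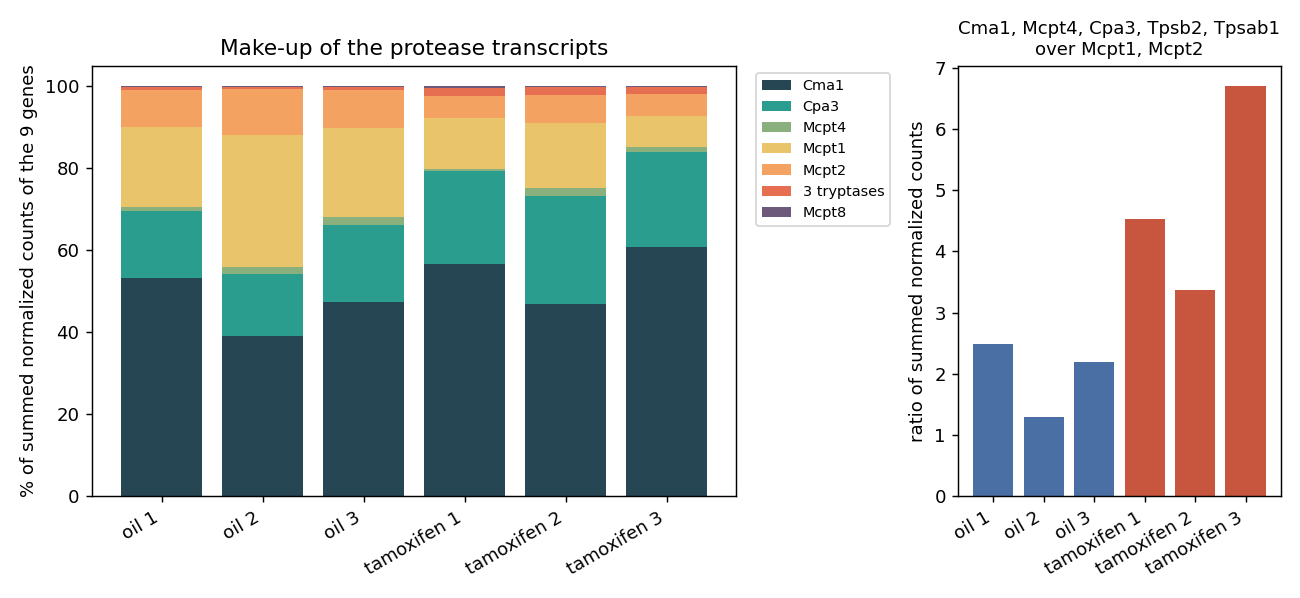
Left, share of each protease in the summed normalized counts of the 9 genes (y axis, percent) in each library. Right, ratio of the summed counts of Cma1, Mcpt4, Cpa3, Tpsb2 and Tpsab1 to those of Mcpt1 and Mcpt2 in each library, from 1.30 to 2.49 in oil (blue) and from 3.36 to 6.70 in tamoxifen (red).

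Across the 6 libraries the genes with the most similar profile were sought for the most abundant member of each class, by Pearson's r on log2(value + 1) among the other 12297 tested genes. With 6 libraries in 2 groups many genes reach a high r, and these values are a description. For Tpsg1 they were Gpld1 (r = 0.99), which encodes a phospholipase that cleaves GPI anchors, Inpp5a, an inositol phosphatase, Gng7, a G protein subunit, Slc19a2, a thiamine transporter, and Ikzf4, a zinc finger transcription factor, with r from 0.97 to 0.99. Mcpt8 (r = 0.96) and Tpsb2 (r = 0.95) followed at ranks 14 and 24. For Cma1 they were Hrh2, the histamine H2 receptor gene, Dlg1, A830073O21Rik, Ceacam1 and the interleukin-1 receptor gene Il1r1, with r from 0.979 to 0.997. Hrh2 had 211, 179 and 172 normalized counts in oil and 174, 224 and 393 in tamoxifen. For Cpa3 the first was Mrgprb2 (r = 0.99), the receptor through which connective tissue mast cells respond to basic secretagogues, followed by C130083M11Rik, Dancr, Mkl2 and Trim30d. Mcpt1 and Mcpt2 had an r of 0.85 with each other, while Mcpt1 and Tpsg1 had an r of -0.67.

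Genes of the mast cell programme that are not members were tested, in lists drawn up with earlier results of these data known. Over all 12298 genes limma called 0 at an adjusted p under 0.05 (0% of genes tested), with 550 (4.47%) at an unadjusted p under 0.05, and edgeR on recovered reads called 0 while DESeq2 called 71, or 0.473% of 15004. Without tamoxifen 1 limma called 41 genes, 0.333% of those tested. Against that background, of 16 tested mast cell genes other than the proteases, 7 were higher and 9 lower in the tamoxifen group and 0 passed the test, with a median log2 difference of -0.13 over all 6 libraries and 0.11 without tamoxifen 1. The unadjusted p was under 0.05 for 3 of them, Tph1, Cyp11a1 and Cd63.

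Cyp11a1, a steroid-making enzyme, had the largest difference among these after Mrgprb2. It had 9890, 3720 and 5612 normalized counts in oil and 16440, 11790 and 18800 in tamoxifen, and a log2 difference of 1.38 (standard error 0.37, limma adjusted p 0.666). The groups did not overlap. Tph1, the enzyme that begins serotonin synthesis, had a log2 difference of 0.64 and did not overlap either (limma adjusted p 0.666). Of the 16 tested genes, 3 (Tph1, Cyp11a1 and Cd63) were above every oil library in all 3 tamoxifen libraries, as were 7.86% of all tested genes. Another 2, Ms4a2 and Srgn, were below every oil library in all 3, as were 9.69%. Mrgprb2 had 11.7, 10.6 and 14.9 normalized counts in oil and 10.2, 72.7 and 86.4 in tamoxifen, with tamoxifen 2 and 3 the highest, as for Cpa3, and tamoxifen 1 the lowest. Its log2 difference was 1.65 over all 6 libraries (limma adjusted p 0.666) and 2.60 without tamoxifen 1, where limma gave an adjusted p of 0.00792. Its GC content is 37.7%, where the tamoxifen 1 library was low. Ms4a2, the beta chain of the IgE receptor, had 17754, 19301 and 19161 normalized counts in oil and 2965, 16499 and 14036 in tamoxifen, a log2 difference of -1.09 that was -0.30 without tamoxifen 1. Il1rl1, the interleukin-33 receptor, and the histamine enzyme Hdc, both among the most abundant of the list, had log2 differences of -0.44 and 0.20, which were -0.085 and 0.085 without tamoxifen 1.

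Genes that store and release granule proteases formed a list of which 21 were tested. Of these, 12 were higher and 9 lower and 0 passed in limma, as did 0% of all tested genes, so that this count says nothing particular of the list (1 had an unadjusted p under 0.05), with a median log2 difference of 0.095 (0.085 without tamoxifen 1). Srgn, the core protein on which the proteases are packed, had 27160 ± 954 normalized counts in oil and 22927 ± 3713 in tamoxifen (SD, n = 3), a log2 difference of -0.26 that was -0.12 without tamoxifen 1, the lowest library at 18662. After the GC correction the difference of Srgn turned to 0.083, so its direction did not hold. Ndst2, which sulfates heparin in mast cells, had 17439 in oil and 17300 in tamoxifen on average, a log2 difference of -0.012. With the GC correction the Ndst2 difference was -0.20. Cd63, a granule membrane protein exposed on degranulation, had 765 ± 285 in oil and 1244 ± 87.3 in tamoxifen, a log2 difference of 0.77 with a limma adjusted p of 0.666. The largest other differences were 0.92 for Ctss, a lysosomal cysteine protease at low level, and -0.64 for Snap23, a membrane fusion protein, which was 0.061 without tamoxifen 1.

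The listed genes near the members in the genome, all proteases except Agtr1b and Gyg, were mostly at or near 0 reads. Of these 20 genes 9 had no read in any library, among them Gzmc, Gzmf, Gzmg and Gzmn of the granzyme part of the chromosome 14 locus. For a gene with 0 reads in a library, the upper 95% limit of the expected count is about 3 reads. Another 6 were listed too low to be tested, and 5 were tested. Among these, 3 were higher and 2 lower, with a median log2 difference of 0.083, and 0 passed the test in limma over all 6 libraries (1 at an unadjusted p under 0.05). Gzmb, a granzyme at the far end of the locus 320.8 kb from the lower end of Cma1, had 5.39, 6.75 and 6.50 normalized counts in oil and 83.1, 71.7 and 74.6 in tamoxifen. All 3 tamoxifen libraries were close together and far above oil. Since its oil values all lie under the filter value of 10, Gzmb entered the test only through the tamoxifen libraries, and a gene that enters this way had to differ. The log2 difference was 3.43 (standard error 0.28, limma adjusted p 0.0950), and it passed without tamoxifen 1 (limma adjusted p 0.00348) and in DESeq2. Ctsg, encoding cathepsin G, lies just beyond Mcpt8 and had 64.7, 51.1 and 90.1 normalized counts in oil and 124, 75.8 and 188 in tamoxifen (log2 difference 0.85, limma adjusted p 0.666). Cma2 lies between Cma1 and Mcpt1 and had 33.2, 23.2 and 14.9 in oil and 2.56, 25.3 and 40.0 in tamoxifen, and 26 of the 1034 windows of 75 bases in Mcpt4 occur in it as well. Gyg, beside Cpa3, had a log2 difference of -0.39, and of 0.14 without tamoxifen 1.

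**Figure D5:**
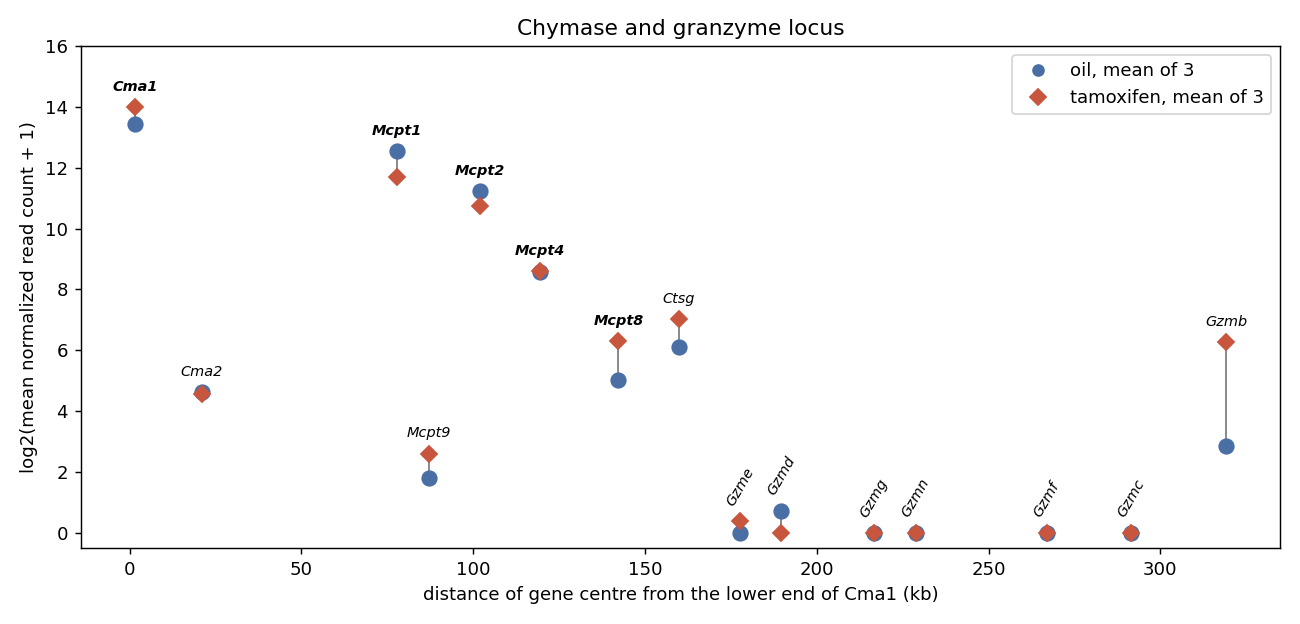
Mean normalized read count on the log2(value + 1) scale (y axis) of the genes of the chymase and granzyme locus against the distance of the gene centre from the lower end of Cma1 in kb (x axis), oil as circles and tamoxifen as diamonds (means of 3 libraries), members in bold. Among the members, levels fall from Cma1 and Mcpt1 through Mcpt2, Mcpt4 and Mcpt8. Most granzymes are at or near 0, and Gzmb stands out at the far end with 6.21 in oil and 76.5 in tamoxifen on the linear scale.

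Along this locus the mean level per kb of the members fell in the order in which they lie, from Cma1 to Mcpt8. The plot of the locus shows their levels before scaling by length. The signs of the log2 difference were mixed along it, 0.46 for Cma1, -0.85 for Mcpt1, -0.54 for Mcpt2, -0.39 for Mcpt4 and 1.29 for Mcpt8. At the tryptase locus all 3 members had a positive difference, 0.89 for Tpsab1, 3.03 for Tpsb2 and 1.75 for Tpsg1.

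The summed levels of the marker lists of 2 other cell types did not overlap between the groups. Neither list was tested. The summed level of 9 macrophage markers was 97.4 to 241 normalized counts in oil and 259 to 360 in tamoxifen, with 3 of 7 tested genes higher in all 3 tamoxifen libraries, as were 7.86% of all tested genes, and none at 0. The summed level of 10 neutrophil and promyelocyte markers was 74.3 to 109.6 in oil and 179 to 246 in tamoxifen, with Ly6g at 0. Of its 3 tested genes only Elane was higher in all 3 tamoxifen libraries, and with oil values of at most 1.86 normalized counts it entered the test through the tamoxifen libraries alone, so that it had to be higher there. Markers of other lineages overlapped between the groups or were near 0. The summed levels in oil and tamoxifen were 47209 to 66604 and 52313 to 83057 normalized counts for 6 erythroid markers, 165 to 201 and 193 to 638 for 5 megakaryocyte markers, and at most 27.3 in any library for the eosinophil, T cell and B cell markers. The macrophage and neutrophil sums are small beside those of the proteases Cma1, Cpa3, Mcpt1 and Mcpt2 and of the order of those of the tryptases and Mcpt8. Mature cells of these kinds are what the Lin− gate is meant to remove, although the antibodies of the splenocyte cocktail are not given in the sources used here. Their part in the result was not tested.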

How the data were processed

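Bulk RNA-seq covered 6 mice, grouped and numbered by their sample titles. What the authors deposited is a normalized signal under the name of counts, in which the reads of each gene were divided by a library's size factor. Their pipeline was RNA STAR and DESeq2, with mm10 in the submitters' processing notes. Versions, annotation, strand setting and filters are not given in the sources used here, and the kit named for library preparation is one for DNA tagmentation. In every library 100% of values above 0 were whole multiples (within 0.01) of 1 step, by which they were divided to recover reads (in tamoxifen 2 the step was 1.01, close to unscaled counts). Rows without a name (1832 of 55450, with 0.0400% to 0.0614% of reads) were left out. Of the 53618 named rows, 51944 matched a GENCODE vM21 symbol.

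limma (version 3.58.1, R 4.3.3) with a mean-variance trend was run on log2(value + 1) for 12298 genes, those that reached 10 in at least 3 libraries, two-sided, with Benjamini-Hochberg adjustment and a threshold of 0.05. This scale makes changes of low genes look smaller. Each library is 1 mouse, and the p-values are based on the spread between mice. The mice were recipients of passed-on leukemia cells, and how many leukemias these came from is not given in the sources used here. The members, lists and tests were chosen with earlier results of these data known, and members were not tested. Named genes were the 9 members, genes of each list past the threshold, the 3 most abundant and the 3 with the largest difference per list, the 5 nearest profiles of the most abundant member per class, and Usp18. Cacna1h, Tph1, Cd200r3, Prss34 and Elane were named after their values were seen. Alternatives were edgeR 4.0.16 and DESeq2 1.42.0 on recovered reads, other filters, pseudocounts of 0.5 and 5, other scalings, each library left out, the replicate number as a block, and a loess correction for GC content (span 0.3). Reads lacked molecular identifiers, so counting limits cover counting error only.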

Additional observations from a re-analysis of the deposited data

How the results depend on the processing

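The number of genes past the threshold depended on the tamoxifen 1 library and on the tool. Over all genes limma called 0, DESeq2 71, limma after the GC correction 2, and limma with 1 library left out 0 to 41, where 41 was reached without tamoxifen 1. Without tamoxifen 1 edgeR called 46 and DESeq2 231. These last 2 fits were added after the data were seen. Of the mast cell genes other than proteases, limma called 0 to 1 with 1 library left out, and without tamoxifen 1 edgeR called 1 (Mrgprb2) and DESeq2 2 (Mrgprb2 and Tph1). Of the neighbouring genes, limma called 0 to 1 with 1 library left out, and Gzmb was the 1 gene called without tamoxifen 1 in limma, edgeR and DESeq2, by DESeq2 over all libraries and after the GC correction. Its oil values all lie under the filter value of 10, so these calls are no sign of stability. The storage and secretion list had 0 calls under every alternative run.

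With 1 library left out, the log2 difference of Mcpt4 ranged from -0.95 to 0.51 and was positive only without tamoxifen 1, and that of the summed proteases ranged from -0.011 to 0.55 and was negative only without tamoxifen 3. The log2 difference of Tpsg1 was 1.49 after the GC correction. The other 7 members kept their direction and moved by less than their within-group SD under each of 11 alternatives. The causes of these changes were not tested. Samples with the same replicate number did not deviate together (correlations of -0.024, 0.061 and -0.15), so these values give no sign of pairing. With so few libraries per group and tamoxifen 1 far apart, they cannot exclude it. With the replicate block limma called 0 genes, with 426 at an unadjusted p under 0.05 against 550 without it, and 0 with the block and the GC correction. Depth limits the members with few reads, with 8 to 17 reads of Tpsb2 in the oil libraries and 63 reads of Mcpt4 in tamoxifen 1.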
